A study of Mus musculus with 18 samples.

Results

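Hepatocellular carcinomas of wild-type (WT) mice were set against normal mouse liver. The comparison used 10 of the 18 arrays in the series, namely all 7 arrays of WT tumours and all 3 arrays of untreated liver, as given by the sample titles. The tumours came from male C3H/HeOuJ mice 54 weeks old given the liver carcinogen diethylnitrosamine (DEN) once at 100 mg/kg in week 12. CCl4, which injures the liver, followed in 6 injections at 0.5 ml/kg over weeks 13 to 23. The normal livers came from untreated male C3H/HeOuJ mice 15 weeks old, so carcinogen, hepatotoxin and age differ together between the groups and cannot be told apart. The other arrays, used here only where named, hold 5 tumours of C3H/HeJ mice, whose Tlr4 carries the P712H change, and 3 tumours of C3H/HeOuJ mice given ampicillin, neomycin, metronidazole and vancomycin from week 10, all under the same DEN and CCl4 regimen. Whether each sample is a different mouse is not given in the sources used here, so p-values reflect sample spread only, and that spread may be technical.

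Hepatocytes are the main cell of the liver and carry out most of its metabolism, from the urea cycle and bile acid synthesis to the clearance of drugs and hormones. Their genes are divided between zones along the blood flow, and Wnt signalling maintains the zone next to the central vein. Tumours that arise from hepatocytes commonly lose adult liver functions and turn on genes of the fetal liver, of which Afp is the best known. All values are log2 signals of the GCRMA method, which subtracts background and summarises the probes of each probe set. A gene was taken as changed at a limma adjusted p under 0.05, and changes are WT tumours minus normal livers ± SE. Where a group lay below log2 4 on all its arrays, the fold was computed against log2 4 and is a lower bound ("at least"). Where 3 values stand for WT tumours they are the lowest, median and highest of 7, and values of normal livers are in the order 1, 2, 3.

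Both groups were liver by their markers, and the arrays also differed in their control probes. Of 11 tested hepatocyte markers 9 did not pass the test, 0 rose and 2 fell (1 fell without normal liver 1, 2 or 3, 4 fell without WT tumours 17 and 19), and Alb, which encodes serum albumin, had 14.48, 14.55 and 14.62 in WT tumours, against 14.49, 14.62 and 14.63 in normal livers. The bile duct keratin Krt19, the T cell gene Cd3e and the B cell gene Cd79a lay below log2 4 on all 10 arrays, with highest tumour values of 3.12, 2.30 and 2.15. Median signals were alike, at 6.76 to 6.85 in WT tumours and 6.75 to 6.78 in normal livers. The Gapdh control probe sets, which show how evenly a transcript was copied along its length, had a 3' minus 5' difference of 0.42 ± 0.15 in WT tumours (SD, n = 7) and 1.52 ± 0.13 in normal livers (SD, n = 3), and those of beta-actin 2.14 ± 0.17 in WT tumours and 3.90 ± 0.31 in normal livers. The spiked control RNA Dap read 1.77 to 2.03 on WT tumour arrays and 10.16 to 10.50 on normal liver arrays. Labelling and RNA quality therefore cannot be told apart from tissue in any result below, and their part was not tested. In a tissue extract, fewer cells of a type and less RNA per cell cannot be told apart either.

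The tumours differed from normal liver across much of the transcriptome. Of 9053 tested genes 3533 changed (39.0%), 1701 higher (18.8%) and 1832 lower (20.2%), and 6652 of 16663 probe sets tested one by one did so (39.9%). The shares of 18.8% higher and 20.2% lower are the background for gene list counts below, other than those from fits with arrays left out or weighted. Those fits have their own backgrounds. In 3474 genes (38.4%) every tumour lay on the same side of every normal liver. Large changes were more often rises: 120 genes rose at least 8-fold and 61 fell at least 8-fold, with bounds counted at the bound. Without WT tumours 17 and 19, 1691 genes rose and 1693 fell. Leaving out a normal liver lowered the count of changed genes to between 2383 and 2467, with 1213 to 1225 higher and 1170 to 1242 lower. Leaving out a tumour gave 3170 to 3588, with 1541 to 1720 higher and 1615 to 1872 lower. Where such a step, or leaving out WT tumours 17 and 19 together, moved a gene list's count of at least 1 by more than 1.5 times, the moved count follows in parentheses; where it ended the call of a named gene, the highest adjusted p follows.

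**Figure D1:**
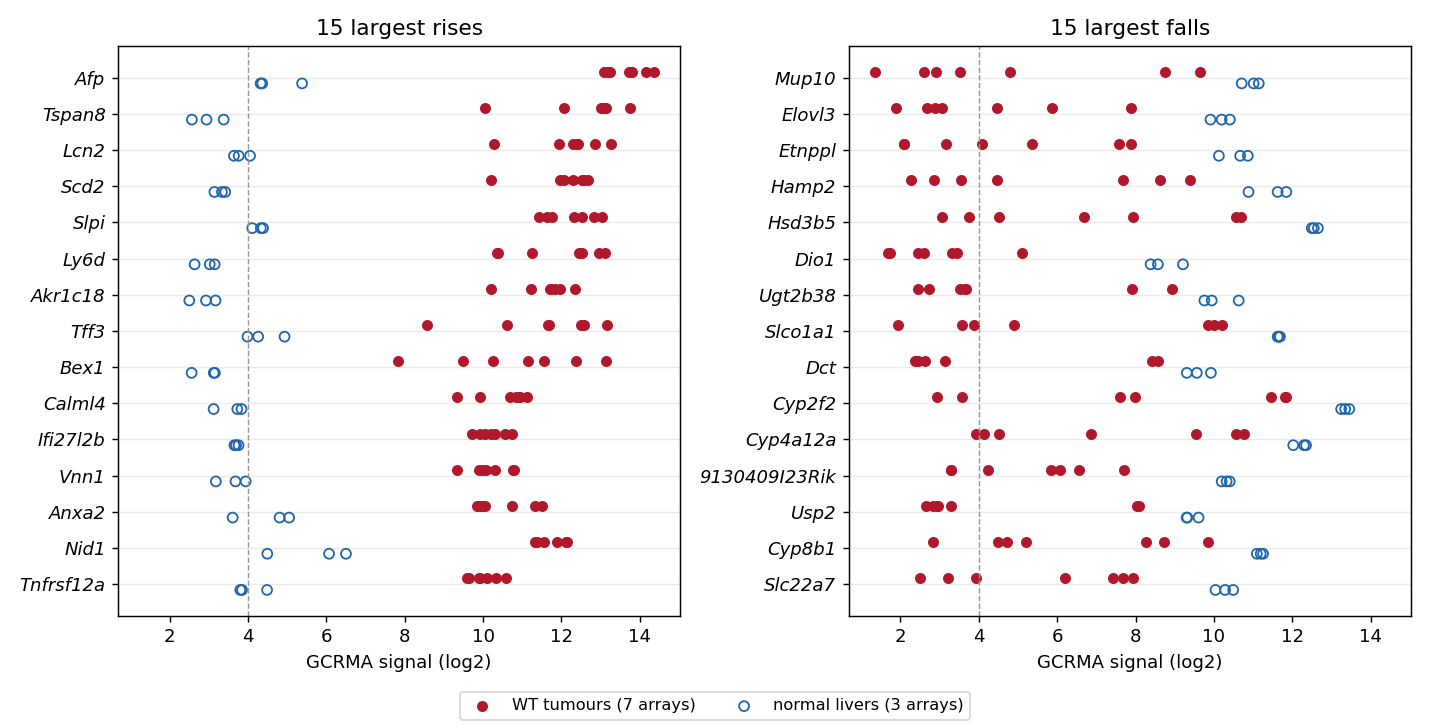
GCRMA signal (log2, horizontal axis) of the 15 genes with the largest rises and the 15 with the largest falls. Filled red points are the 7 WT tumours, open blue points the 3 normal livers, and the dashed line marks log2 4. The tumours lie close together for most rises, such as Afp at 13.09 to 14.37, and are spread widely for most falls, such as Mup10 at 1.34 to 9.64.

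The 15 largest rises were led by Afp, Tspan8, Lcn2, Scd2 and Slpi, each at log2 5.38 or less in every normal liver. Afp encodes alpha-fetoprotein, the serum protein of the fetal liver. It had 13.09, 13.72 and 14.37 in WT tumours, against 5.38, 4.32 and 4.36 in normal livers, which is 501-fold higher (8.97 ± 0.93 log2, limma adjusted p = 7.57e-06). Every tumour exceeded every normal liver by far, and the tumours spanned little more than 1 log2 unit. Tspan8, a tetraspanin of the cell surface, had 10.05, 13.08 and 13.74 in WT tumours, against 2.57, 3.38 and 2.94 in normal livers, and was at least 387-fold higher (adjusted p = 6.21e-07). Lcn2 encodes lipocalin 2, a carrier of bacterial siderophores. It had 10.27, 12.40 and 13.26 in WT tumours, against 3.64, 3.76 and 4.05 in normal livers, a change of 8.39 ± 0.69 (adjusted p = 7.31e-07). Slpi, an inhibitor of leukocyte serine proteases, had 11.44, 12.32 and 13.04 in WT tumours, against 4.33, 4.11 and 4.38 in normal livers and changed by 7.95 ± 0.46 (adjusted p = 9.57e-09). Scd2 and Akr1c18, an enzyme that reduces progesterone, were at least 263-fold and at least 190-fold higher. Gpc3, a heparan sulphate proteoglycan of fetal liver and a marker of human liver cancer, was at least 50.3-fold higher but varied, with 6.27, 11.26, 11.08, 10.93, 10.66, 9.89 and 7.47 in tumours 16 to 22. In the list of oncofetal and tumour marker genes, 18 of 23 tested members rose and 0 fell; many of its members were chosen with these data known.

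Afp and Alb are neighbours in the genome and are both known targets of the hepatocyte factor HNF1, but only Afp passed the test. Their starts lie 29.8 kb apart on chromosome 5, and the change of Alb was -0.03 ± 0.08 (adjusted p = 0.821). The promoters below, from RefSeq (GRCm38.p6), run from 250 bases before to 50 bases after the start, 5′ to 3′ on the plus strand, and are shown because they sit before the gene that rose most and its neighbour. Capitals mark the HNF1 motif GTTAAT, searched on both strands. It begins 105 bases before the start in Afp and 32 bases before it in Alb, and 7.20% of all 27025 promoters hold it.
Afp, chr5:90490464-90490763: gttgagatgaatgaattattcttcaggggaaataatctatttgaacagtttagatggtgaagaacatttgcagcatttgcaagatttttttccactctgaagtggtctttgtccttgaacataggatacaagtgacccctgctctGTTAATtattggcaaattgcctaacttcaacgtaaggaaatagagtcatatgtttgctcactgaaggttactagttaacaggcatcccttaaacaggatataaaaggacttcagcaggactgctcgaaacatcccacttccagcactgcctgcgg
Alb, chr5:90460620-90460919: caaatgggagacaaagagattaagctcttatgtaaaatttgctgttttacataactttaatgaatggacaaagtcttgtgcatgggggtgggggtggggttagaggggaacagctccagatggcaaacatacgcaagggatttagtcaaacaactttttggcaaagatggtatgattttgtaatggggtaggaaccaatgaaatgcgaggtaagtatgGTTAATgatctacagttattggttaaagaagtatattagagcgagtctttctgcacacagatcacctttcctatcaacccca

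The 15 largest falls were led by Mup10 and Elovl3, and in many of them the tumours were spread widely. Mup10 encodes a major urinary protein, a pheromone carrier of the male mouse. It had 4.79, 1.34, 2.91, 2.60, 3.53, 9.64 and 8.74 in tumours 16 to 22, against 11.15, 10.71 and 11.02 in normal livers (-6.16 ± 1.80, adjusted p = 0.0138). Tumours 21 and 22 were nearest to normal liver, and the other 5 lay below log2 5. Elovl3, which lengthens fatty acids, had 4.45, 1.89, 2.67, 2.89, 3.05, 7.89 and 5.88 in tumours 16 to 22, against 9.91, 10.41 and 10.20 in normal livers (-6.07 ± 1.54, adjusted p = 0.00635). Hsd3b5, a steroid reductase of male liver, had 7.93, 3.05, 3.75, 6.68, 4.51, 10.70 and 10.57 in tumours 16 to 22, against 12.66, 12.55 and 12.50 in normal livers (-5.83 ± 1.96, adjusted p = 0.0271; adjusted p up to 0.077 without normal liver 1, 2 or 3). The same tumours, 21 and 22, were again nearest to normal liver. Dio1, the deiodinase that activates thyroid hormone, fell more evenly, to 1.69, 2.60 and 5.11 in WT tumours, against 8.57, 8.39 and 9.21 in normal livers (-5.81 ± 0.60, adjusted p = 7.57e-06). Obp2a, an odorant-binding lipocalin, was below log2 4 in all tumours and was at least 19.6-fold lower (adjusted p = 4.33e-09). All 4 tested major urinary and odorant-binding protein genes fell; Mup and Ugt2b family members share sequence, so their probe sets may share signal.

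Among the genes selected as large changes, falls were more uneven than rises. The selection itself favours uneven falls, because a fall with all tumours below log2 4 was shortened to the bound. Sult5a1, a sulfotransferase, had a fitted change of -3.70 and a bounded change of -2.43, with an SD of 0.78 over WT tumours. It was thus left out of the falls of at least 8-fold. The part of this selection in the contrast was not tested. Among the 61 genes that fell at least 8-fold the median SD over WT tumours was 1.76, and 26 had an SD over 2. Among the 120 that rose at least 8-fold the median SD was 0.90, and 5 had an SD over 2. Over all tested genes the medians were 0.31 in WT tumours and 0.15 in normal livers. Tumour 21 was nearest to normal liver for 29 and tumour 22 for 23 of the 61 falls, whereas tumour 16 was nearest for 46 of the 120 rises. In 18 of the 61 falls some tumour lay below log2 4 while another lay above 8. Cyp2f2, a cytochrome P450, was such a gene, with 11.46, 2.92, 7.99, 3.58, 7.60, 11.81 and 11.85 in tumours 16 to 22, against 13.35, 13.25 and 13.46 in normal livers (-5.18 ± 1.71, adjusted p = 0.0249; adjusted p up to 0.0733 without normal liver 1, 2 or 3).

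Some genes were bright in a few tumours and did not pass the test. Plat, which encodes tissue plasminogen activator, had 3.33, 12.02, 3.76, 12.45, 4.77, 3.39 and 2.96 in tumours 16 to 22, against 2.75, 2.59 and 2.75 in normal livers (adjusted p = 0.2). Cpe, a prohormone-processing carboxypeptidase, had 2.52, 11.41, 5.63, 10.92, 2.62, 2.70 and 2.94 in tumours 16 to 22, against 2.80, 2.74 and 2.58 in normal livers (adjusted p = 0.269). Both were bright in tumours 17 and 19, as was the pancreatic lipase relative Pnliprp1, at 9.0 and 8.44 there and at most 2.37 in the other tumours. Other genes singled out other tumours. Orm2, an acute-phase plasma protein, had 3.22, 12.59, 3.54, 4.32, 3.79, 8.42 and 6.30 in tumours 16 to 22, against 5.76, 5.31 and 4.68 in normal livers, and was brightest in tumour 17. Peg3, an imprinted gene, had 8.47, 2.25, 10.31, 2.27, 5.97, 4.80 and 2.41 in tumours 16 to 22, against 3.86, 3.55 and 3.14 in normal livers, and was brightest in tumours 16 and 18. Sult2a2, a sulfotransferase, had 2.67, 2.25, 7.07, 2.57, 10.19, 8.11 and 2.57 in tumours 16 to 22, against 2.18, 1.79 and 2.10 in normal livers.

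Genes of the zone around the central vein and targets of Wnt signalling followed the same pair of tumours. Of 22 tested members of this list, 3 rose and 2 fell (0 fell without normal liver 2, 14 fell without WT tumours 17 and 19). Tumours 17 and 19 had the highest values of the 7 tumours for 17 of the 22 members (77.3%), against 913 of all 9053 tested genes (10.1%), and for 12 of these members the other 5 tumours all lay below all normal livers, against 194 of all 9053. Tumours 17 and 19 were singled out, and the list chosen, with values of these data known, so these counts are a description and not a test. The genes named in this paragraph were chosen after their values were seen, other than Ccnd1, Ctnnb1 and Myc. Glul, glutamine synthetase, had 9.68, 12.73, 8.54, 13.14, 8.92, 10.88 and 11.08 in tumours 16 to 22, against 12.02, 11.95 and 11.80 in normal livers. Tumours 17 and 19 were above and the other 5 below normal liver. Oat, ornithine aminotransferase, had 8.54, 13.30, 7.03, 13.75, 7.03, 11.52 and 11.24 in tumours 16 to 22, against 12.43, 12.72 and 12.23 in normal livers, with the same split. Rhbg, an ammonium transporter, had 3.97, 7.66, 3.54, 9.13, 3.28, 4.43 and 4.42 in tumours 16 to 22, against 5.63, 5.70 and 5.65 in normal livers. The transcription factor Tbx3 had 4.96, 8.59, 3.76, 10.14, 3.64, 6.05 and 5.52 in tumours 16 to 22, against 6.86, 6.64 and 7.11 in normal livers. Rnf43 and Znrf3 encode ubiquitin ligases that remove Wnt receptors and are induced by Wnt signalling; they were highest in the same tumours. Slc13a3, a dicarboxylate carrier, had 8.11, 12.31, 7.11, 12.82, 8.51, 8.06 and 9.18 in tumours 16 to 22, against 8.50, 8.54 and 8.38 in normal livers. For Slc13a3 the other 5 tumours lay near normal liver. Ccnd1, Ctnnb1 and Myc passed the test over the 7 tumours. Ccnd1, which encodes cyclin D1, rose in every tumour, with 9.98, 10.27 and 10.57 in WT tumours, against 7.79, 7.88 and 6.99 in normal livers (2.74 ± 0.43, adjusted p = 0.000239), and Ctnnb1, beta-catenin, rose by 0.56 ± 0.14 (adjusted p = 0.00622). Myc had 3.87, 6.14 and 7.79 in WT tumours, against 7.27, 8.91 and 8.05 in normal livers (-2.06 ± 0.76, adjusted p = 0.0411; adjusted p up to 0.177 without normal liver 1, 2 or 3 or WT tumour 18, 19, 20, 21 or 22).

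**Figure D2:**
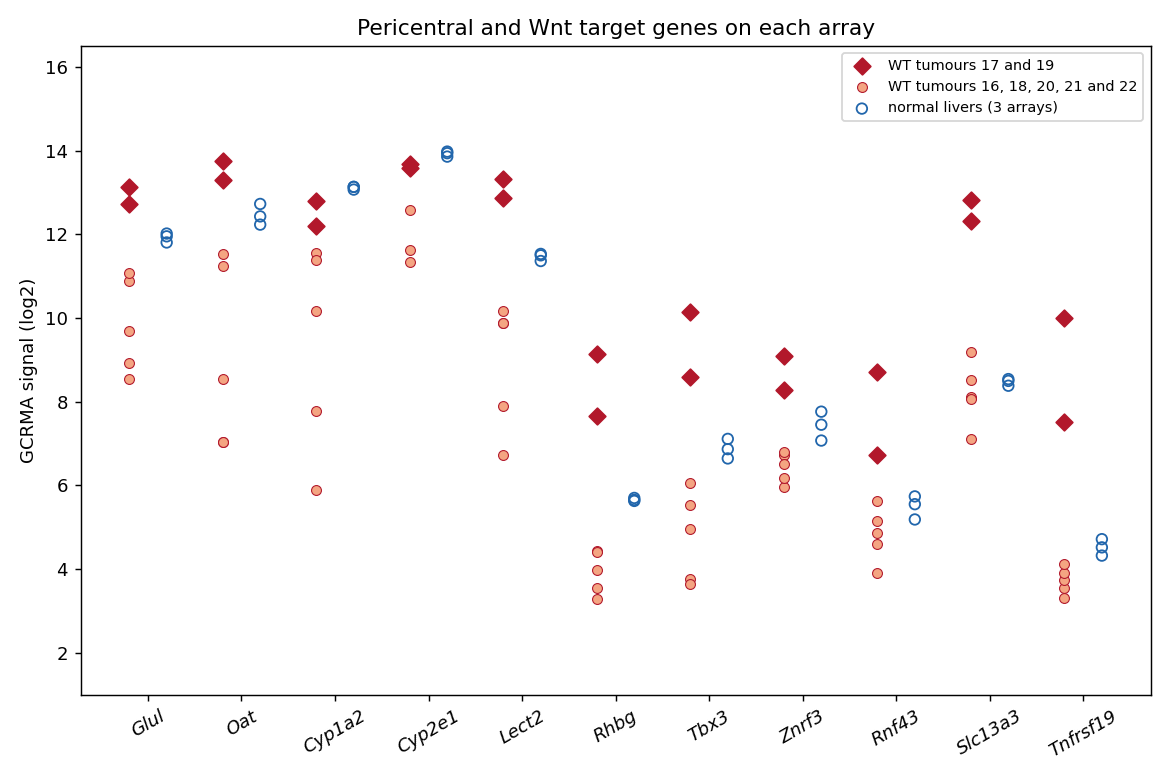
GCRMA signal (log2, vertical axis) of 11 pericentral and Wnt target genes on each array. Red diamonds are WT tumours 17 and 19, pale circles WT tumours 16, 18, 20, 21 and 22, and open blue circles the 3 normal livers; for Glul the diamonds lie at 12.73 and 13.14, above the normal livers, and the other tumours at 8.54 to 11.08, below them.

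Of the gene lists with at least 10 tested members, mitosis genes had the largest share of rises, and DNA replication genes had a share near that of all tested genes. Mitosis genes act in chromosome segregation and the division of the cell: 37 of 42 tested members rose and 2 fell (0 fell without normal liver 2, 1 fell without WT tumours 17 and 19), against backgrounds of 18.8% and 20.2% of all tested genes. Their median change was 0.84 with bounded values, against -0.04 over all tested genes. The filter kept 42 of 61 mitosis genes and 36 of 49 DNA replication genes on the array. A gene below log2 4 in all normal livers was kept only where at least 3 tumour arrays exceeded log2 4. This favours rises among such genes, and its part in these counts was not tested. Mki67, the Ki-67 proliferation marker, had 8.14, 7.66, 8.94, 8.23, 6.69, 6.33 and 5.30 in tumours 16 to 22, against 2.67, 2.74 and 2.75 in normal livers, and was at least 10-fold higher (adjusted p = 0.000195). Cdc20, the activator of the anaphase-promoting complex, had 5.33, 7.93 and 8.76 in WT tumours, against 4.67, 4.10 and 4.28 in normal livers (3.04 ± 0.60, adjusted p = 0.00133). Tumour 18 was the highest and tumour 22 the lowest for both genes, and no tumour overlapped normal liver. Stmn1, a microtubule-destabilising protein, had 8.93, 10.00 and 10.69 in WT tumours, against 6.55, 6.46 and 6.32 in normal livers (3.33 ± 0.49, adjusted p = 0.00015). Of the DNA replication list, 6 of 36 tested members rose and 7 fell, and 11 rose when arrays were weighted by quality. Under those weights 2452 of all 9053 tested genes rose. Rrm2, the regulatory subunit of ribonucleotide reductase, rose by 2.89 ± 0.50 (adjusted p = 0.000543) and the helicase subunit gene Mcm6 by 1.78 ± 0.43 (adjusted p = 0.00469). Mcm10, a replication initiation factor, changed by -3.79 ± 1.02 (adjusted p = 0.00886), the thymidine kinase gene Tk1 by -2.10 ± 0.48 (adjusted p = 0.00327) and the flap endonuclease gene Fen1 by -1.67 ± 0.25 (adjusted p = 0.000185). The mitosis genes that fell were Spc24, a kinetochore component (-1.72 ± 0.52; adjusted p up to 0.0783 without normal liver 2), and E2f8, a repressor of cell cycle genes (-1.32 ± 0.44; adjusted p up to 0.137 without normal liver 2 or 3). Whether the 2 lists differ was not tested.

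Promoters of the 2 lists differed in a short motif. TTTGAA, the core of the cell cycle genes homology region through which the DREAM complex is known to repress mitotic genes in resting cells, was found on either strand in 26 of 36 mitosis list promoters (72.2%) and 3 of 30 replication list promoters (10.0%), against 12.1% of the promoters of tested genes and 18.1% of all promoters. CCAAT, the NF-Y motif, was about equally frequent in both, in 25 of 36 and 20 of 30, against 38.6% for tested genes. These shares describe letters in the window, with no test, and a match is not a shown binding site. The motifs did not overlap each other in the promoters printed here. Ccnb2, which encodes the mitotic cyclin B2, holds 2 TTTGAA motifs and Cdc20 holds 1. Both promoters (RefSeq, GRCm38.p6, minus strand, shown 5′ to 3′, 250 bases before to 50 after the start) are printed because both genes rose, Ccnb2 at least 4.84-fold (adjusted p = 0.00106; chosen after its values were seen). Capitals mark TTTGAA or its complement.
Ccnb2, chr9:70421505-70421804: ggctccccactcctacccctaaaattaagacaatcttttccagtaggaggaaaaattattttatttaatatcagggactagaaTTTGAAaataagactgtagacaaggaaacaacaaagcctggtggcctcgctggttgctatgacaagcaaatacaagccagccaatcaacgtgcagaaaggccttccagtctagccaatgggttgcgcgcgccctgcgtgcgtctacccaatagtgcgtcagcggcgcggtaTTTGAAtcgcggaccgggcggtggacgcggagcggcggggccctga
Cdc20, chr4:118437294-118437593: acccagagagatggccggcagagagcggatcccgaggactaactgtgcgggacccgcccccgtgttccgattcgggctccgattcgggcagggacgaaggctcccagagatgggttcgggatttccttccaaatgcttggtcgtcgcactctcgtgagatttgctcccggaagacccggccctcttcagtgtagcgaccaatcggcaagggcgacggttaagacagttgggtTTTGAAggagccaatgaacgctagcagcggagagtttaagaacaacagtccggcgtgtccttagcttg

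Inhibitors of the cell cycle rose beside the mitosis genes. Cdkn2b, which encodes the cyclin-dependent kinase inhibitor p15, had 7.35, 8.31 and 10.21 in WT tumours, against 2.07, 2.08 and 2.03 in normal livers, at least 25.4-fold higher (adjusted p = 2.1e-05). Cdkn1a encodes p21, an inhibitor induced by p53. It had 7.08, 8.38 and 9.31 in WT tumours, against 3.35, 2.30 and 2.59 in normal livers, at least 18.5-fold higher (adjusted p = 6.12e-05), and all tumours lay above all normal livers. Btg2, an antiproliferative p53 target, rose by 4.18 ± 0.47 (adjusted p = 1.8e-05). In the list of p53 targets and apoptosis regulators, 18 of 40 tested members rose and 3 fell (11 rose without normal liver 1, 1 fell without normal liver 2 or 3). Gadd45g, a stress sensor, had 3.27, 5.71 and 6.72 in WT tumours, against 7.77, 9.72 and 9.02 in normal livers (-3.40 ± 1.17, adjusted p = 0.0306; adjusted p up to 0.123 without normal liver 2 or 3 or WT tumour 20), and the pro-apoptotic gene Bad fell by 0.73 ± 0.19 (adjusted p = 0.0066).

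**Figure D3:**
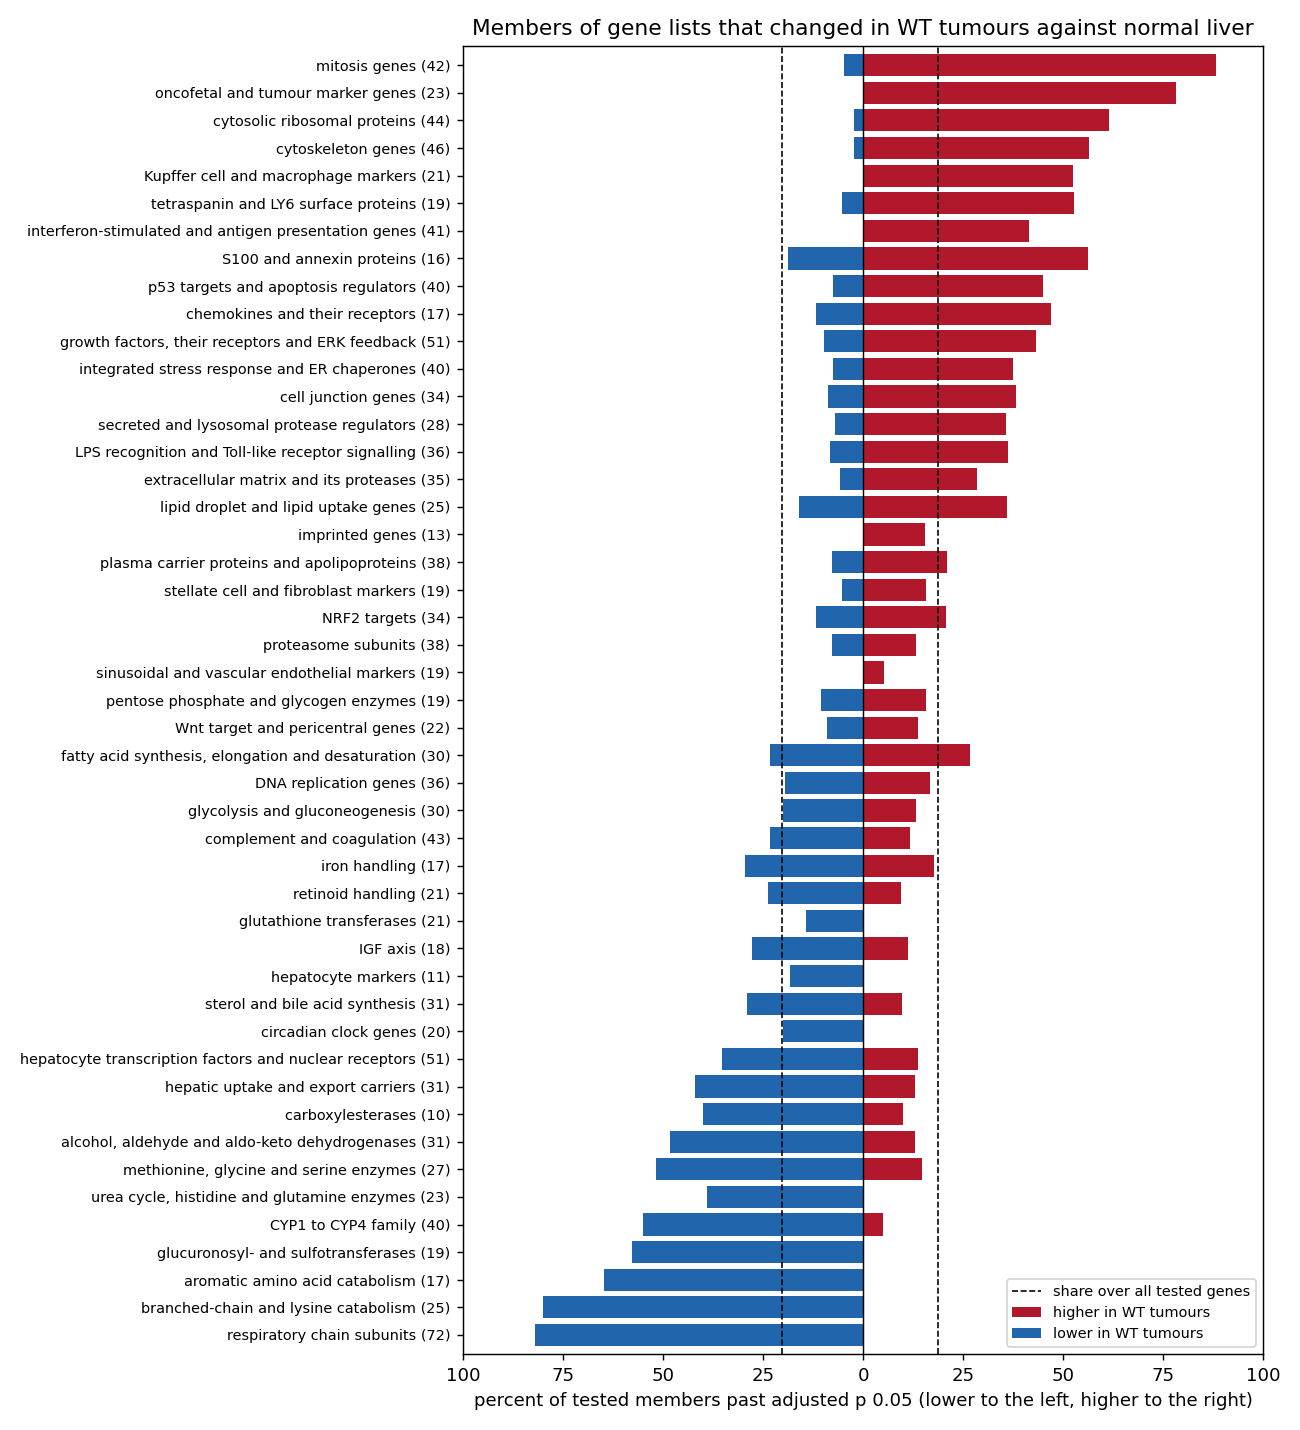
Percent of tested members of each gene list with at least 10 tested members that passed the test, lower to the left (blue) and higher to the right (red); the number tested is in parentheses and dashed lines mark the shares over all tested genes, 20.2% lower and 18.8% higher. Mitosis genes top the plot with 37 of 42 higher, and respiratory chain subunits are at the bottom with 59 of 72 lower.

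Subunits of the respiratory chain fell together by a small amount, and ribosomal protein genes rose by a small amount. The respiratory chain and ATP synthase make ATP in mitochondria: 0 of 72 tested members rose and 59 fell, with a median change of -0.46. Ndufs7, of complex I, had 10.30, 10.61 and 10.90 in WT tumours, against 11.67, 11.54 and 11.65 in normal livers (-1.01 ± 0.14, adjusted p = 0.000113). Uqcrc1, of complex III, had 9.27, 9.79 and 10.34 in WT tumours, against 10.64, 10.72 and 10.77 in normal livers (-0.86 ± 0.18, adjusted p = 0.00184). Cytosolic ribosomal proteins build the ribosome: 27 of 44 tested members rose and 1 fell, with a median change of 0.34. Rplp0 had 12.82, 13.00 and 13.39 in WT tumours, against 12.08, 12.12 and 12.19 in normal livers (0.92 ± 0.14, adjusted p = 0.00017), and Rpl27a was the member that fell (-0.79 ± 0.14, adjusted p = 0.000668). Tumours 17 and 19 were the highest tumours for 23 of the 44 ribosomal genes, against 10.1% of all tested genes. Changes of this size are smaller than the 3' to 5' difference between the groups' control probe sets given above, whose part was not tested. The proteasome degrades ubiquitin-tagged proteins. Of its 38 tested members 5 rose and 3 fell (1 fell without normal liver 2 or 3), below the 18.8% and 20.2% of all tested genes. Psmb8, the subunit induced by interferon, rose by 1.38 ± 0.29 (adjusted p = 0.00199).

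**Figure D4:**
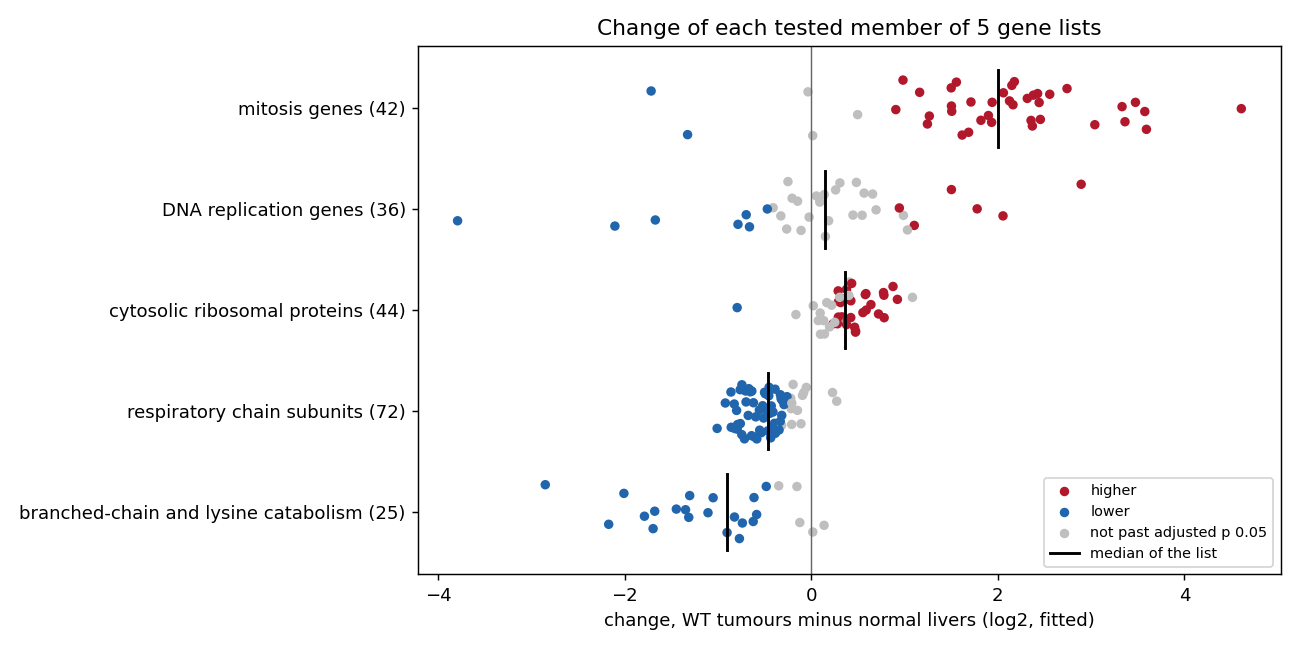
Change of each tested member of 5 gene lists (WT tumours minus normal livers, log2, horizontal axis); red points are higher, blue points lower and grey points not past adjusted p 0.05, and black bars are the medians of the fitted changes. Mitosis genes lie mostly right of 0 with a fitted median of 2.00 and branched-chain and lysine catabolism mostly left of it, at -0.90.

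Enzymes that break down amino acids fell, while those that make serine rose. Over all tested genes 18.8% rose and 20.2% fell. Of the branched-chain and lysine catabolism genes, 0 of 25 tested members rose and 20 fell. Aadat, which transaminates the lysine product aminoadipate, had 6.16, 8.08 and 9.10 in WT tumours, against 10.82, 10.77 and 10.68 in normal livers (-2.85 ± 0.58, adjusted p = 0.00166). Ivd, isovaleryl-CoA dehydrogenase of the leucine pathway, had 5.59, 7.45 and 8.02 in WT tumours, against 9.35, 9.12 and 9.17 in normal livers (-2.01 ± 0.45, adjusted p = 0.00304), and its groups did not overlap. Among aromatic amino acid enzymes, 0 of 17 tested members rose and 11 fell (5 fell without normal liver 3); Afmid, of the kynurenine pathway of tryptophan, changed by -2.87 ± 0.78 (adjusted p = 0.00963). Among urea cycle, histidine and glutamine enzymes, 0 of 23 tested members rose and 9 fell (2 fell without normal liver 2 or 3). Asl, the argininosuccinate lyase of the urea cycle, had 8.69, 9.48 and 10.74 in WT tumours, against 10.89, 10.98 and 11.03 in normal livers (-1.47 ± 0.39, adjusted p = 0.00853). Tumours 17 and 19 were the lowest of the 7 tumours for 13 of 17 aromatic and 13 of 25 branched-chain and lysine genes, against 15.4% of all tested genes. The serine pathway went the other way within a list in which 4 of 27 tested members rose and 14 fell. Phgdh, the entry enzyme of serine synthesis, had 6.02, 8.03 and 9.62 in WT tumours, against 1.63, 2.09 and 2.31 in normal livers and was at least 17.7-fold higher (adjusted p = 6.23e-05). Psat1, the next enzyme, was at least 6.8-fold higher (adjusted p = 0.00127). In the same list Sardh, sarcosine dehydrogenase, changed by -2.30 ± 0.52 (adjusted p = 0.0031), and Csad, which makes hypotaurine, by -2.55 ± 0.69 (adjusted p = 0.00919).

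Sugar and lipid genes moved in both directions, with a few large changes. In glycolysis and gluconeogenesis 4 of 30 tested members rose and 6 fell (2 fell without normal liver 1, 2 or 3), close to the 18.8% higher and 20.2% lower over all tested genes. Pygb, the brain isoform of glycogen phosphorylase, had 7.23, 7.77 and 8.89 in WT tumours, against 2.87, 3.44 and 3.81 in normal livers and was at least 16-fold higher (adjusted p = 1.31e-06). Pfkp, the platelet isoform of phosphofructokinase, was at least 3.32-fold higher (adjusted p = 0.0149; adjusted p up to 0.0559 without normal liver 2). Both isoforms were below log2 4 in all normal livers. In fatty acid synthesis, elongation and desaturation 8 of 30 tested members rose and 7 fell (4 fell without normal liver 1, 2 or 3). Scd2, a desaturase expressed chiefly outside the adult liver, had 10.20, 12.29 and 12.67 in WT tumours, against 3.33, 3.14 and 3.42 in normal livers, whereas its liver paralogue Scd1, named after its values were seen, had 13.65, 13.89 and 14.05 in WT tumours, against 13.82, 14.07 and 14.03 in normal livers (-0.08 ± 0.16, adjusted p = 0.69). The Scd1 groups overlapped and those of Scd2 stood over 6 log2 units apart. The 3 probe sets of Scd2 averaged 12.04, 7.11 and 4.27 in WT tumours, against 3.30, 2.56 and 1.59 in normal livers, so the dimmest was near background in both. Me1, malic enzyme, had 7.82, 9.21 and 9.94 in WT tumours, against 11.06, 11.32 and 11.46 in normal livers (-2.21 ± 0.57, adjusted p = 0.00709). Among lipid droplet and uptake genes, 9 of 25 tested members rose and 4 fell (4 rose without normal liver 1): Cd36, a fatty acid receptor, rose by 4.32 ± 0.75 (adjusted p = 0.000568) and Fabp4, a fatty acid binding protein, by 2.24 ± 0.57 (adjusted p = 0.00674), while Mgll, monoglyceride lipase, changed by -2.07 ± 0.59 (adjusted p = 0.0121). Fabp4 is also an adipocyte marker; both tested adipocyte markers rose, with summed signals of 8.68 to 10.49 in WT tumours and 7.42 to 7.63 in normal livers, and their part in the lipid genes was not tested.

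Genes for the clearance of drugs and hormones fell far more often than they rose. For all tested genes the shares were 18.8% higher and 20.2% lower. In the CYP1 to CYP4 families of cytochrome P450, 2 of 40 tested members rose and 22 fell (8 fell without normal liver 2). Cyp2b9 went against this. It had 7.80, 2.67, 8.99, 5.33, 9.53, 8.64 and 7.99 in tumours 16 to 22, against 1.34, 1.74 and 1.68 in normal livers, and was at least 9.71-fold higher (adjusted p = 0.00116). Among glucuronosyl- and sulfotransferases, which conjugate drugs and steroids, 0 of 19 tested members rose and 11 fell; Ugt2b1 had 8.76, 10.71 and 12.55 in WT tumours, against 13.43, 13.38 and 13.37 in normal livers (-2.77 ± 0.72, adjusted p = 0.00704). In contrast to these, 0 of 21 tested members rose and 3 fell (1 fell without normal liver 2 or 3) among glutathione transferases. Cyp8b1, which makes cholic acid, had 9.84, 4.49, 5.21, 2.83, 4.72, 8.72 and 8.27 in tumours 16 to 22, against 11.20, 11.26 and 11.10 in normal livers (-4.89 ± 1.27, adjusted p = 0.00715). Cyp7a1, which starts bile acid synthesis from cholesterol, had 8.77, 5.98, 5.29, 8.16, 4.26, 10.89 and 10.73 in tumours 16 to 22, against 11.14, 11.09 and 11.34 in normal livers (-3.47 ± 1.28, adjusted p = 0.0423; adjusted p up to 0.111 without normal liver 1, 2 or 3 or WT tumour 17, 18, 19 or 20). Tumours 21 and 22 were within 1 log2 unit of normal liver for Cyp7a1, and the others were lower. Of hepatic carriers, 4 of 31 tested members rose and 13 fell (7 fell without normal liver 1 or 3). Slco2b1, an organic anion uptake carrier, had 6.85, 4.20, 3.68, 3.57, 4.01, 8.79 and 8.69 in tumours 16 to 22, against 10.28, 10.47 and 10.42 in normal livers (-4.70 ± 1.27, adjusted p = 0.0088). The export pump Abcc4 was at least 8.36-fold higher (adjusted p = 0.00972), and the multidrug pump Abcb1a rose by 3.46 ± 0.68 (adjusted p = 0.00139).

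Igfbp1 rose and Igfals and Hamp2 fell in every tumour, within lists of mixed outcome. In the IGF axis 2 of 18 tested members rose and 5 fell (3 fell without normal liver 1 or 3), and in iron handling 3 of 17 tested members rose and 5 fell (2 fell without normal liver 1), against 18.8% higher and 20.2% lower over all tested genes. Igfbp1, which binds insulin-like growth factors, had 12.96, 13.71 and 14.24 in WT tumours, against 8.07, 9.76 and 8.91 in normal livers (4.79 ± 0.38, adjusted p = 5.63e-07). Igfals, the partner that keeps IGF1 in the circulation, had 2.87, 4.05 and 6.80 in WT tumours, against 8.13, 7.98 and 8.22 in normal livers (-3.38 ± 0.82, adjusted p = 0.00505), and Igf1 itself changed by -1.54 ± 0.55 (adjusted p = 0.0351; adjusted p up to 0.0959 without normal liver 1, 2 or 3 or WT tumour 20). Igfbp1 was above and Igfals below normal liver in every tumour. Hepcidin, the hormone that blocks iron export, is encoded in mice by Hamp and a duplicate, Hamp2. The 1 kept probe set of Hamp2 is of a shared-sequence type, so its signal may include that of Hamp. Hamp2 had 7.69, 2.86, 4.47, 2.27, 3.53, 9.38 and 8.63 in tumours 16 to 22, against 10.88, 11.85 and 11.63 in normal livers (-5.91 ± 1.32, adjusted p = 0.003). Hamp had 10.83, 2.84, 10.12, 6.60, 8.71, 12.07 and 11.77 in tumours 16 to 22, against 13.06, 13.06 and 13.07 in normal livers (-4.07 ± 1.41, adjusted p = 0.0312; adjusted p up to 0.0845 without normal liver 1, 2 or 3 or WT tumour 19). Tumours 17 and 19 were the lowest and tumour 21 the highest for both. Id1, a target of the BMP pathway that drives hepcidin, was at least 12.8-fold higher (adjusted p = 0.00134). The promoters of the duplicates (RefSeq, GRCm38.p6, minus strand, 5′ to 3′, 250 bases before to 50 after the start) are shown to let their likeness be seen. They matched at 276 of 297 aligned bases (92.9%), and capitals mark the 21 mismatches.
Hamp, chr7:30943980-30944279: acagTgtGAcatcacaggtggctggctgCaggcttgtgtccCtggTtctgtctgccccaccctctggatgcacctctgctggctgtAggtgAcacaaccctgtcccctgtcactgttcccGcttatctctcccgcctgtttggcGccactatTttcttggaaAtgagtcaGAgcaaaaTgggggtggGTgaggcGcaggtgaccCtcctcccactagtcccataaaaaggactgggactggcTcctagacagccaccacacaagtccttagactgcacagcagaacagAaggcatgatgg
Hamp2, chr7:30924132-30924431: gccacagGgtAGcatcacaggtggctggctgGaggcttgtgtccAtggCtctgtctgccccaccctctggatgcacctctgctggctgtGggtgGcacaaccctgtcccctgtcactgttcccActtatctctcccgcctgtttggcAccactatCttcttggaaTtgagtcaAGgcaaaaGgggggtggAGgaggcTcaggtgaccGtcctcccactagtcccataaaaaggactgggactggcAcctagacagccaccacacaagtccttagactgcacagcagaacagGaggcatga

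Regulators changed as well. Among hepatocyte transcription factors and nuclear receptors, 7 of 51 tested members rose and 18 fell (10 fell without normal liver 2). Sox4, a factor of progenitor cells, had 7.08, 8.81 and 11.83 in WT tumours, against 4.65, 5.67 and 3.96 in normal livers (4.35 ± 0.92, adjusted p = 0.00206), and Klf6, a zinc finger factor, rose by 3.64 ± 0.53 (adjusted p = 0.000135). Hes1, a target of Notch signalling, was at least 4.94-fold higher (adjusted p = 0.000182), whereas its relative Hes6 had 7.52, 8.01 and 10.45 in WT tumours, against 11.11, 10.85 and 10.92 in normal livers (-2.41 ± 0.54, adjusted p = 0.00293). Growth factor, receptor and ERK feedback genes moved upward more often than tested genes as a whole: 22 of 51 tested members rose and 5 fell (2 fell without normal liver 2 or 3). Fst, follistatin, which binds activins, had 6.35, 9.70 and 10.75 in WT tumours, against 3.69, 4.54 and 3.73 in normal livers (5.62 ± 0.94, adjusted p = 0.000423). Tgfbr2, a receptor of TGF-beta, had 9.71, 11.07 and 11.67 in WT tumours, against 5.05, 6.60 and 6.99 in normal livers (4.82 ± 0.50, adjusted p = 7.43e-06). Tumour 16 was the lowest tumour for both and still lay above every normal liver.

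Cytoskeleton, S100 and annexin, and matrix genes rose more often than the 18.8% of all tested genes, and stellate cell markers did not. In the cytoskeleton list 26 of 46 tested members rose and 1 fell (17 rose without normal liver 1, 2 fell without WT tumour 17, 18 or 21, 2 fell without WT tumours 17 and 19), among them Tubb2a, a beta-tubulin, with 11.93, 12.54 and 12.99 in WT tumours, against 8.67, 8.92 and 8.89 in normal livers (3.65 ± 0.41, adjusted p = 1.68e-05), and Tagln2, an actin-binding protein (3.41 ± 0.16, adjusted p = 1.32e-09). Of S100 and annexin proteins, which bind calcium, 9 of 16 tested members rose and 3 fell (5 rose without normal liver 3). Anxa2 had 9.86, 10.06 and 11.50 in WT tumours, against 3.61, 4.80 and 5.05 in normal livers (5.99 ± 0.48, adjusted p = 6.62e-07), and S100a1 went the other way (-2.30 ± 0.58, adjusted p = 0.00623). In extracellular matrix genes 10 of 35 tested members rose and 2 fell (5 rose without normal liver 1 or 2). Nid1, nidogen of basement membranes, had 11.33, 11.55 and 12.14 in WT tumours, against 4.49, 6.07 and 6.50 in normal livers (5.99 ± 0.34, adjusted p = 8.17e-09), while the collagen gene Col27a1 changed by -2.72 ± 0.39 (adjusted p = 0.000118). Col1a1, the main collagen of scars, lay below log2 4 on all 10 arrays. Of stellate cell and fibroblast markers, 3 of 19 tested members rose and 1 fell (0 fell without normal liver 2 or 3), with summed signals of 12.54 to 13.55 in WT tumours and 11.39 to 12.43 in normal livers; their part in the matrix result was not tested.

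Surface protein, junction and protease regulator genes rose more often than the 18.8% of all tested genes, and fell less often than the 20.2%. Among tetraspanin and LY6 surface proteins 10 of 19 tested members rose and 1 fell (6 rose without normal liver 2, 2 fell without WT tumour 18). Ly6d, a GPI-anchored surface protein, had 10.36, 12.45 and 13.10 in WT tumours, against 3.02, 2.63 and 3.15 in normal livers, and was at least 233-fold higher (adjusted p = 0.000218). Cd9, a tetraspanin, had 9.38, 10.66 and 11.28 in WT tumours, against 7.53, 7.44 and 7.64 in normal livers (2.99 ± 0.42, adjusted p = 0.000104). Ly6d was below log2 4 in normal liver, whereas Cd9 was measured in both tissues. Prom1, a membrane protein of progenitor and bile duct cells, had 6.12, 11.50, 9.90, 11.26, 9.67, 9.69 and 9.44 in tumours 16 to 22, against 2.78, 3.49 and 3.07 in normal livers, and was at least 50.3-fold higher (adjusted p = 2.45e-05). Of 8 tested cholangiocyte and progenitor markers 3 rose (Prom1, Tspan8 and Cd24a), 0 fell and 5 did not pass the test. Cd24a changed by 2.55 ± 0.89 (adjusted p up to 0.103 without normal liver 1, 2 or 3 or WT tumour 17, 18 or 19). The summed signal of the 8 markers was 10.67 to 13.91 in WT tumours, against 7.57 to 8.29 in normal livers. Tspan8 alone had 10.05 to 13.74 in WT tumours, so the tumour sums largely repeat this 1 gene. The bile duct keratins Krt19 and Krt7 were below log2 4 on all arrays. In the cell junction list 13 of 34 tested members rose and 3 fell (1 fell without normal liver 1, 2 or 3); Cldn14, a claudin of tight junctions, rose by 1.84 ± 0.40 (adjusted p = 0.00265) and Gjb1, the main gap junction protein of hepatocytes, changed by -0.60 ± 0.14 (adjusted p = 0.00361). Among secreted and lysosomal protease regulators 10 of 28 tested members rose and 2 fell (1 fell without normal liver 1 or 3). Spink1, a trypsin inhibitor, had 8.20, 9.36 and 11.81 in WT tumours, against 3.21, 2.99 and 2.67 in normal livers, and was at least 58.4-fold higher (adjusted p = 6.07e-05). Lgmn, a lysosomal protease, had 9.43, 9.80 and 10.02 in WT tumours, against 6.38, 6.36 and 6.48 in normal livers (3.34 ± 0.35, adjusted p = 8.02e-06). Neither gene overlapped between the groups.

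Plasma protein genes, most of them active in hepatocytes, changed at shares near or below those of all tested genes, 18.8% higher and 20.2% lower. Among plasma carriers and apolipoproteins 8 of 38 tested members rose and 3 fell (1 fell without normal liver 3, 5 fell without WT tumour 22). Serpina7, the thyroxine-binding globulin, had 10.36, 11.89, 11.98, 12.15, 10.34, 10.45 and 10.82 in tumours 16 to 22, against 8.0, 8.36 and 7.88 in normal livers (3.06 ± 0.40, adjusted p = 6.63e-05). Itih5, a hyaluronan-binding inhibitor family member, had 10.82, 12.25 and 12.49 in WT tumours, against 8.54, 8.49 and 8.74 in normal livers (3.45 ± 0.67, adjusted p = 0.00121). Both rose in every tumour. Among complement and coagulation genes 5 of 43 tested members rose and 10 fell (9 rose without WT tumour 19, 9 rose without WT tumours 17 and 19, 4 fell without normal liver 1, 2 or 3, 5 fell without WT tumours 17 and 19); C8b, of the membrane attack complex, had 7.51, 9.0 and 10.54 in WT tumours, against 11.62, 11.58 and 11.51 in normal livers (-2.54 ± 0.72, adjusted p = 0.0115). Cfb, of the alternative complement pathway, rose by 0.70 ± 0.14 (adjusted p = 0.00139).

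Integrated stress response genes rose and dehydrogenases fell at shares above those of all tested genes, 18.8% higher and 20.2% lower. The shares of NRF2 targets and clock genes that passed the test were near or below these. In the integrated stress response and ER chaperone list 15 of 40 tested members rose and 3 fell (9 rose without normal liver 1, 1 fell without normal liver 1, 2 or 3). Ddit4, an inhibitor of mTORC1, had 7.23, 8.30 and 9.48 in WT tumours, against 4.54, 4.83 and 5.82 in normal livers (3.23 ± 0.66, adjusted p = 0.00165). Among NRF2 targets, which defend against oxidants, 7 of 34 tested members rose and 4 fell (4 rose without normal liver 2 or 3, 1 fell without normal liver 1, 2 or 3 or WT tumour 16 or 18); Srxn1, sulfiredoxin, had 8.04, 9.47 and 10.59 in WT tumours, against 7.39, 7.39 and 7.52 in normal livers (1.99 ± 0.57, adjusted p = 0.0125). Of circadian clock genes 0 of 20 tested members rose and 4 fell (2 fell without normal liver 1 or 2). Their median change was nonetheless -1.18, against -0.04 over all tested genes. A change of at least 2-fold either way, passing the test or not, was seen in 12 of the 20, against 1596 of all 9053. Their summed signal was 13.03 to 14.00 in WT tumours and 14.04 to 14.15 in normal livers. The time of day of sampling is not given in the sources used here. Nampt, which makes NAD, changed by -1.52 ± 0.36 (adjusted p = 0.00427). Of the alcohol, aldehyde and aldo-keto dehydrogenases, 4 of 31 tested members rose and 15 fell (2 rose without normal liver 1, 2 or 3 or WT tumour 19 or 20): Adh4, an alcohol dehydrogenase, had 8.73, 10.02 and 10.40 in WT tumours, against 11.54, 11.64 and 11.46 in normal livers (-1.86 ± 0.41, adjusted p = 0.00296). Aldh18a1, which makes proline from glutamate, went the other way and was at least 3.97-fold higher (adjusted p = 0.00205).

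Inflammatory genes and macrophage markers each rose at shares above the 18.8% of all tested genes. Their summed signals did not all follow the same tumours. Tumour 16 had the highest sum of macrophage markers (14.21) and of chemokines and their receptors (13.11). It had the lowest sum of LPS recognition and Toll-like receptor genes (13.66). Cd14, the co-receptor for lipopolysaccharide, had 7.34, 9.44 and 10.26 in WT tumours, against 2.51, 2.36 and 2.73 in normal livers and was at least 36.4-fold higher (adjusted p = 8.02e-06). Tlr1, a receptor for bacterial lipopeptides, had 6.48, 9.03 and 9.94 in WT tumours, against 1.42, 1.58 and 1.21 in normal livers, at least 27.2-fold higher (adjusted p = 9.47e-05). Tlr4, the lipopolysaccharide receptor, stayed below log2 4 on all 10 arrays, at 2.63, 2.85 and 3.82 in WT tumours and 1.99, 2.82 and 2.73 in normal livers, and was not tested. Lbp, the plasma protein that hands lipopolysaccharide to Cd14, had 7.34, 9.05 and 10.47 in WT tumours, against 8.13, 8.13 and 8.32 in normal livers, with overlapping groups (adjusted p = 0.487). In the list of LPS recognition and Toll-like receptor signalling 13 of 36 tested members rose and 3 fell (0 fell without normal liver 1, 5 fell without WT tumour 21 or 22), and among chemokines and their receptors 8 of 17 tested members rose and 2 fell (2 rose without normal liver 1, 1 fell without normal liver 1, 2 or 3 or WT tumour 17, 19 or 20, 1 fell without WT tumours 17 and 19). Cxcl9, a chemokine induced by interferon gamma, had 9.29, 10.02 and 11.85 in WT tumours, against 6.45, 7.06 and 6.62 in normal livers (3.74 ± 0.79, adjusted p = 0.00206). Among interferon-stimulated and antigen presentation genes 17 of 41 tested members rose and 0 fell (11 rose without normal liver 1); Oas1a, which senses viral RNA, had 7.39, 7.52 and 8.04 in WT tumours, against 3.91, 4.32 and 4.55 in normal livers (3.37 ± 0.29, adjusted p = 1.31e-06). Of macrophage markers 11 of 21 tested members rose and 0 fell (6 rose without normal liver 1), and their summed signal was 12.90 to 14.21 in WT tumours and 11.09 to 12.03 in normal livers. Of 12 neutrophil markers on the array only 2 were bright enough to be tested. Both rose (0 rose without normal liver 3), with summed signals of 4.38 to 8.26 in WT tumours and 3.56 to 3.75 in normal livers. The part of macrophage and neutrophil content in these rises was not tested. 2 genes known from resident Kupffer cells did not pass the test. Vsig4 had 9.80, 2.50, 6.44, 4.16, 8.16, 8.80 and 9.48 in tumours 16 to 22, against 5.69, 7.68 and 8.12 in normal livers (adjusted p = 0.955), and Clec4f, named after its values were seen, had 7.24, 2.28, 3.21, 3.06, 5.40, 6.60 and 8.06 in tumours 16 to 22, against 5.16, 6.45 and 7.07 in normal livers (adjusted p = 0.457). Both were low in tumours 17 and 19, which were the lowest tumours for 13 of the 21 macrophage markers, against 15.4% of all tested genes. Of 14 dendritic cell markers on the array only 5 were tested, of which 3 rose and 0 fell. Without probe sets of a shared-sequence type, 1 rose. Among the 3 was H2-Eb1, an antigen-presenting protein, which changed by 3.16 ± 0.86 (adjusted p = 0.00942). Of 19 endothelial markers 1 rose and 0 fell (0 rose without normal liver 1 or 2, 2 rose without WT tumour 20), with summed signals of 8.50 to 12.08 in WT tumours and 10.69 to 11.65 in normal livers.

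Many bright genes differed little. Of 1251 genes above log2 10 in both group means, 411 had a 95% interval of the change within 0.5 of 0. Rps29, a ribosomal protein, had 14.11, 14.25 and 14.38 in WT tumours, against 14.22, 14.22 and 14.20 in normal livers, and Ddx3x, an RNA helicase, had 11.74, 11.88 and 11.97 in WT tumours, against 11.91, 11.86 and 11.91 in normal livers. Selenop, the liver's selenium carrier, had 13.78, 13.90 and 13.97 in WT tumours, against 13.82, 13.92 and 13.96 in normal livers (-0.02 ± 0.08, adjusted p = 0.849). For some genes the answer depended on the probe set. Among 1477 changed genes with more than 1 kept probe set, another probe set was called in the same direction in 946 and in the opposite direction in 66. Pck1, an enzyme of gluconeogenesis, changed by -1.86 ± 0.70 at its brightest probe set (adjusted p = 0.045; adjusted p up to 0.119 without normal liver 1, 2 or 3 or WT tumour 18 or 20). Another of its probe sets was higher in the tumours (adjusted p = 0.00401 among probe sets) but averaged 4.09 in WT tumours and 2.27 in normal livers, near or below log2 4. Hook3, a dynein adaptor, changed by -1.08 ± 0.19 at its brightest probe set (adjusted p = 0.000653 among probe sets) and by 2.19 ± 0.40 at another, which averaged 6.29 in WT tumours and 4.10 in normal livers (adjusted p = 0.000722).

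The same fit set these levels beside those of the other tumours. Of 9053 genes 24 differed between WT and Tlr4-mutant tumours (0.265%) and 8 between WT and antibiotic-treated WT tumours (0.0884%), by limma at an adjusted p under 0.05. None of the 235 genes examined by name did so in either comparison, and 38 and 56 of them had an unadjusted limma p under 0.05. The share of all tested genes at that unadjusted threshold is not given here. The 38 and 56 therefore do not show whether named genes differed more often than others. Afp averaged 13.66 ± 0.50 in WT tumours (SD, n = 7), 12.77 ± 0.63 in mutant tumours (SD, n = 5) and 10.74 ± 3.59 in antibiotic-treated WT tumours (SD, n = 3). A p that misses the threshold does not show that the levels were alike.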

How the data were processed

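RNA of each sample was hybridised to 1 Affymetrix mouse whole-genome array. The deposited values are log2 signals made by the authors with GCRMA, per the submitters' processing notes, whose version is not given in the sources used here; that method corrects background, normalizes between arrays and summarises probes. Array data carry no read depth, and the number of arrays limits the precision. Of 45101 probe sets, 34958 have 1 gene symbol, 932 several and 9211 none in the platform annotation. The 16663 probe sets above log2 4 on at least 3 of the 18 arrays were kept, and the brightest kept probe set on average stood for each of 9053 genes. The 4 groups were fitted together with limma 3.58.1 in R 4.3.3 (lmFit and eBayes, Benjamini-Hochberg adjustment over all tested genes, adjusted p under 0.05), as tested on simulated data. All 18 arrays share 1 estimate of the spread.

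The comparison, the 44 gene lists and the 12 marker lists were chosen with earlier results of these data known. Genes were named by rule: the 15 largest rises and falls whose groups do not overlap, up to 3 passing members of each list in each direction and the brightest marker, the 10 most variable genes among tumours and 6 among normal livers, the 8 bright genes with the narrowest change, up to 6 genes switched on and up to 6 switched off, 4 genes with opposed probe sets, and Tlr4, Cd14, Lbp, Afp, Gpc3, Mki67, Cyp7a1 and Alb. Scd1, Ccnb2, Clec4f and 11 pericentral genes were chosen after their values were seen. Alternatives covered the filter, probe set choice, normalization, variance model, array weights, threshold and arrays left out. Promoters come from a RefSeq table of GRCm38.p6.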

Additional observations from a re-analysis of the deposited data

Results flagged for a closer look

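WT tumour 16 lay far below the other 6 WT tumours in 6 of the 235 genes examined by name, by a gap to the nearest tumour that is large against the range of the group. Chance marks about 1 in 20 groups in this way, counting any tumour on either side, and 6 of 235 is below that share. All 6 flags were low values of tumour 16, in genes picked by rule. The share is therefore no test of the pattern in tumour 16. Scd2, the desaturase, read 10.20 in tumour 16, against 11.96 to 12.67 in the other tumours. Follistatin, Fst, read 6.35 there, against 9.53 to 10.75. The receptor gene Tgfbr2 read 9.71, against 10.99 to 11.67, and the Toll-like receptor gene Tlr1 read 6.48, against 8.56 to 9.94. The surface protein gene Prom1 read 6.12, against 9.44 to 11.50, and Itih5 read 10.82, against 11.78 to 12.49. In all 6 genes tumour 16 was still above every normal liver. It was also the tumour nearest to normal liver in 46 of the 120 genes that rose at least 8-fold.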

How the results depend on the processing

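At an adjusted p under 0.01, 1996 genes changed, 1013 higher and 983 lower, and a test against a 2-fold minimum left 217, 184 higher and 33 lower. Leaving out 1 array at a time gave 2383 to 3588 changed genes, 1213 to 1720 higher and 1170 to 1872 lower, with the lowest counts without a normal liver, which leaves 2. Array weights gave 4960 changed genes, 2452 higher and 2508 lower, which are the background for list counts under these weights. No filter gave 3994 and a filter at log2 6 gave 2930. Of changed genes 51.9% were lower in the values as deposited, 58.0% after centring each array and 58.9% after quantile normalization. The other alternatives gave 3353 to 3611. Of 207 named genes that changed, 57 lost the call without at least 1 array. Array weights moved 32 list counts by more than 1.5 times, all upward. Among them were 10 lower of Wnt target and pericentral genes, 16 lower of urea cycle, histidine and glutamine enzymes, 27 higher of interferon-stimulated genes and 12 higher of complement and coagulation genes. The others included 9 lower of lipid droplet genes, 8 lower of plasma carriers, 7 lower of LPS and Toll-like receptor genes, 5 higher of endothelial markers and 11 higher of DNA replication genes. The 2-fold minimum left 6 mitosis genes higher. The only named gene that reversed was Hook3, at 0.23 by the mean of its probe sets, which include sets called in opposite directions. No paired analysis was possible because the groups share no replicate numbers. Values below log2 4 are close to background and bound folds from below.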
